A study of Homo sapiens with 24 samples.

Results

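The short arm of chromosome 3 (GRCh37, start below 90.5 Mb) held 208 of the 6236 peaks that the authors called with a MYC-tag antibody in PC9 and PC9-OR lung adenocarcinoma cells. The members were chosen by position, and the stretch from 7 to 13 Mb was chosen by its high peak count and raised background in earlier results of these data. Its density and background are therefore given as a description, with no test. Of the 208 peaks, 133 started in that stretch, and 75 lay on the other 84.5 Mb of the arm. All arm peaks came from 2 of the 6 lists, 168 from PC9-OR cells with METTL7A and 40 from parental wild-type PC9.

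PC9 is an established lung adenocarcinoma line with mutant EGFR, and PC9-OR is its osimertinib-resistant derivative, grown with 1 uM of that EGFR inhibitor. Untreated parental PC9 came in a wild-type form and a form overexpressing METTL7A-MYC-tag-FLAG. PC9-OR, always under osimertinib, came in 4 forms, which were wild type, empty vector (EV-MYC-tag-FLAG), METTL7A-MYC-tag-FLAG and the one labelled METTL7A-MYC-tag-FLAG-K86A. Wild-type and empty-vector cells carry no tagged METTL7A and show what the antibody gives without it. Each of these 6 genotypes had 2 immunoprecipitated and 2 input libraries, 24 in all, and 1 peak list was analysed per immunoprecipitated group. The sources used here do not give the transgenes' promoter or the number of clones behind each line.

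In chromatin immunoprecipitation with sequencing, DNA fragments bound by an antibody's target pile up into peaks, which are judged against the local background of the same place. METTL7A is a methyltransferase-like protein known from the endoplasmic reticulum and lipid droplets. The short arm of chromosome 3 is known in lung cancer for frequent loss. Its bands 3p25.3 and 3p25.2 hold, among others, VHL, a ubiquitin ligase subunit that acts on hypoxia-inducible factors, ATP2B2, a calcium pump of the plasma membrane, and PPARG, a nuclear receptor of fat metabolism. The reference tables used here are on another assembly than the peaks, so no peak below is assigned to a gene, exon, intron or promoter, and no sequence is shown.

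The lists differ in depth and make-up. Together they hold 10 runs of the peak caller, told apart by restarting peak numbers, and nothing ties a run of the lists with arm peaks to a replicate. For each peak the number of fragments at the summit and the local background (the fragments expected there) were solved from the fold and p-value that the authors gave, and this succeeded for all 208 arm peaks. The most common background of a run is called its floor. It was 0.676 and 0.341 in the first and second PC9-OR METTL7A runs, 0.0131 and 0.211 in the parental wild-type runs and 0.151 in PC9 with METTL7A. The lists hold no read totals, so depth is judged only roughly from these floors, which also vary with the fragment length of a run.

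In PC9-OR cells with METTL7A, most peaks on the arm started between 7 and 13 Mb in both runs, but only the second run crowded in 3p25. The first run held 5 arm peaks among its 67, and all 5 started between 7 and 13 Mb. Of these 5, 3 lay in 3p26.1, 1 in 3p25.3 and 1 in 3p25.2. The second run held 163 among its 4870, of which 126, or 77.3%, started in this stretch. That is 21.0 peaks per Mb against 0.438 on the rest of the arm, a ratio of 48.0, and against 1.57 per Mb over all standard chromosomes in that run. The rest of the arm was thus below the run's genome-wide density. Of the 91 windows of 1 Mb on the arm, 68 held no second-run peak.

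No such concentration could be seen in the other lists, which had far fewer peaks. The first parental wild-type run held 38 arm peaks, of which 2 started in the stretch, where an even spread by length would give 2.52. The second parental wild-type run held 2 arm peaks and 0 in the stretch. The lists of PC9 with METTL7A (56 peaks), PC9-OR wild type (10), PC9-OR empty vector (6) and PC9-OR K86A (1) held 0 arm peaks. Taking 3 peaks as the upper limit of a count of 0, for counting error only, it allows a share of up to 5.36% of the first of these lists, 30.0% of the second and 50% of the third, and 1 peak sets no limit. The arm's share of the second PC9-OR METTL7A run, 3.35%, lay within these limits. A crowding of that size was thus not detectable in these 4 lists at their length. They include PC9-OR wild type and empty vector, which carry no tagged METTL7A. The share in the first PC9-OR METTL7A run, 7.46% from 5 peaks, lay above the 5.36% for PC9 with METTL7A. The Poisson interval of those 5 peaks, 1.62 to 11.7 of 67, includes a share of 5.36%, so no difference can be read from this.

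**Figure D1:**
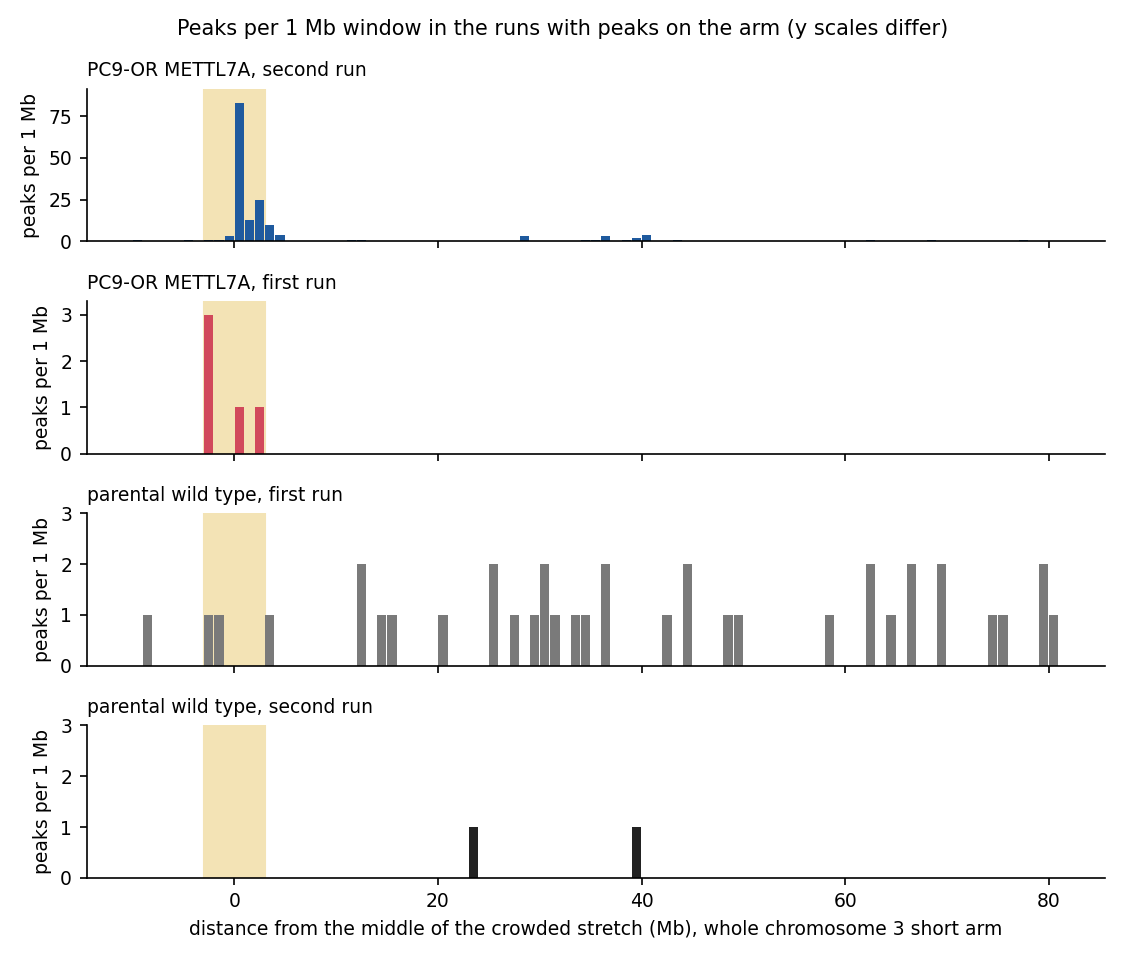
Peaks per 1 Mb window (y axis, scaled separately in each panel) along the chromosome 3 short arm, by distance in Mb from the middle of the stretch from 7 to 13 Mb (shaded), in the 4 runs with arm peaks. The second PC9-OR METTL7A run reaches 83 peaks in 1 window, the 5 first-run peaks all lie in the shaded part, and the parental wild-type runs hold at most 2 peaks in a window.

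Within the stretch the second-run peaks were uneven. The window from 10 to 11 Mb held 83, that from 12 to 13 Mb held 25, that from 11 to 12 Mb held 13 and that from 9 to 10 Mb held 3, and the windows from 7 and 8 Mb held 1 each. By cytogenetic band, 3p25.3 held 90 peaks over 3.1 Mb and 3p25.2 held 38 over 1.5 Mb, of which 34 lay in the stretch. The neighbouring bands were far thinner, with 0.638 per Mb in 3p26.1 and 3.23 per Mb in 3p25.1. A lower step went on beyond 13 Mb, where 14 peaks lay between 13 and 15 Mb, and the remaining arm from 15 Mb to the limit held 21.

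The local background separated the stretch from the rest of the arm. A background of at least 2 floors is called raised here. In the second run 17.5% of all 4870 peaks were raised, against 96 of the 126 stretch peaks, or 76.2%, and 0 of the 37 peaks on the rest of the arm. Only 4 stretch peaks sat at the floor, but 34 of the 37 others did. The median was 3.01 floors in the stretch and 1.00 outside, and the highest value outside was 1.37 floors. In the first run 31.3% of all 67 peaks were raised, and all 5 arm peaks were, with 6.36, 7.33, 10.2, 10.2 and 12 floors. The median of the other 62 first-run peaks was 1.08 floors. Of these 62, 10 reached 6 floors, 9 on chromosome 20 and 1 on the mitochondrial genome. Backgrounds of 6 floors or more in the first run thus lay on 3 chromosomes, counting the mitochondrial genome.

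**Figure D2:**
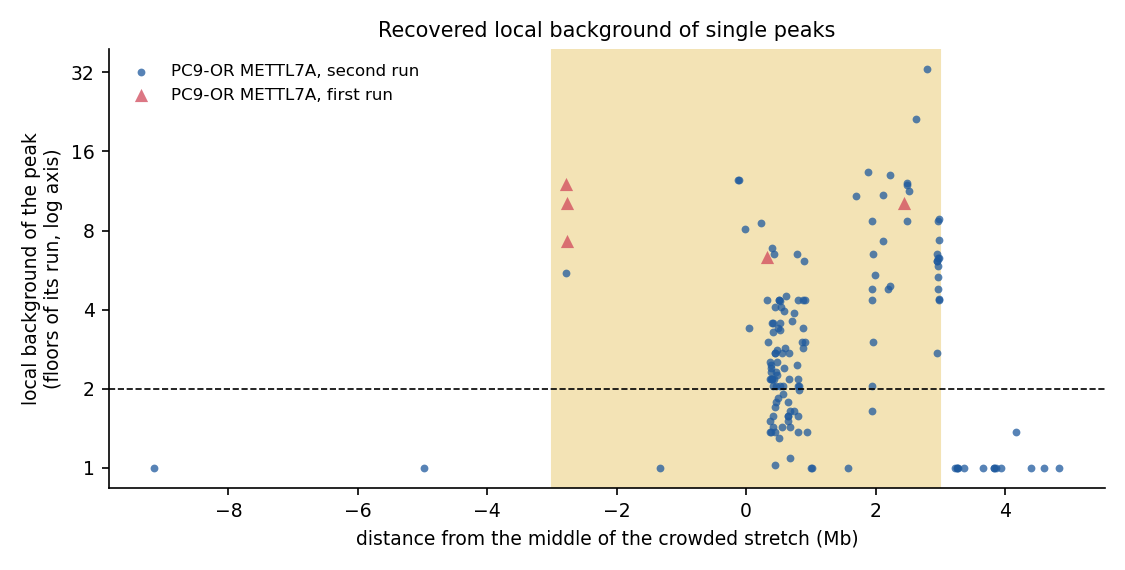
Local background of single peaks (y axis, in floors of the run, log scale) against the distance in Mb from the middle of the stretch (shaded) for both PC9-OR METTL7A runs, with a dashed line at 2 floors. Second-run peaks stand at 1 floor before the stretch and within 1.37 floors after it, rise to 32.9 floors inside it, and the 5 first-run peaks lie between 6.36 and 12 floors.

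The recovered background took stepped values. Above the floor, all 2017 second-run values and all 42 first-run values were whole multiples of 1 of 2 steps, within a tolerance of 0.0005 plus 0.005% of the value. The steps were 0.0233 and 0.741 in the second run, a ratio of 31.8, and 0.0142 and 0.626 in the first, a ratio of 43.9. The tolerance spanned at most 9.1% of the finer step for second-run arm peaks and 12.7% for first-run ones, and it reached 20% for 2 values of each run, all off the arm, whose match says little. MACS2 sets the background to the highest of a genome-wide mean and of counts in windows of 10 kb, 1 kb and the fragment length, each scaled to the fragment length. If the finer step is that of the 10 kb window, the ratios give a short window of 314.3 bp and 227.6 bp. The narrowest peaks of these runs measured 314 and 227 bp, and MACS2 takes the fragment length as its least peak width. MACS2 uses the fragment-length window only when a control library is supplied. Read that way, the raised values count control reads and not immunoprecipitated ones. That reading was inferred from the steps, and the sources used here do not name the control library.

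The steps set how firmly a raised value stands. In the second run 1 unit of the short window equals 2.17 floors, so a single unit can lift a peak over 2 floors. That was so for 196 of the 850 raised peaks of the whole run but for only 4 of the 96 in the stretch. Of these 96, 76 took their value from the longer windows and 20 from the short one. Without single-unit values 92 of the 126 stretch peaks, or 73.0%, remained raised, against 13.4% of the whole run. The floor itself equals 14.6 units of the 10 kb window in the second run, whereas the highest stretch background rested on 481 units. In the first run 2 of the 5 arm peaks rested on the 10 kb window, with 302 and 348 units against 47.5 at the floor, and 3 on 11, 11 and 13 units of the short window.

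The main raised background of the second run began between 8.67 and 9.87 Mb, an edge set by a single peak at the floor. The last second-run peak before it, chr3:8665229-8665660 in 3p26.1, stood at 1.00 floor with 8 fragments. The next, chr3:9868731-9869131 in 3p25.3, stood at 12.4 floors with 18 fragments, and the 1203 kb between them held no peak. An earlier rise lay in 3p26.1, where the second-run peak chr3:7211721-7212036 had 5.54 floors. No second-run peak was called between it and the peak at 8.67 Mb. A separate rise and an earlier start with a dip at 8.67 Mb therefore cannot be told apart. Both runs marked the place at 7.21 Mb. The first-run peak chr3:7212417-7212849 lay 380 bp further on, with 12 floors and 33 fragments, and 2 more followed at chr3:7233022-7233276 and chr3:7233669-7234010, with 7.33 and 10.2 floors. Background is known only where a peak was called, so each edge can be placed only between neighbouring peaks.

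The far edge was sharper. The last raised peak, chr3:12988527-12989291 in 3p25.2, had 4.35 floors, 19 fragments and a fold of 8.06. After 246.1 kb without a peak, chr3:13235347-13235841 stood at 1.00 floor with 5 fragments and a fold of 4.47. All 10 second-run peaks between 13 and 14 Mb were at the floor, so this edge lay inside 3p25.2 and close to the limit of 13 Mb that defined the stretch. Peaks just beyond the edge were still crowded, as given above, at floor background.

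Between the edges the raised background was broken. With entry and exit each set by 3 peaks in a row, 4 raised segments were found in the second run. The longest, chr3:11698055-12989291, spanned 1291 kb with 34 of its 35 peaks raised and a median of 6.29 floors. The others were chr3:9868731-10447437 (579 kb, 25 of 31 raised), chr3:10462683-10619438 (157 kb, 19 of 23) and chr3:10744785-10911440 (167 kb, 14 of 17), with medians of 2.53, 2.73 and 3.01 floors. A place at floor level separated these 3 from the longest, with 3 peaks, at 11.01, 11.02 and 11.58 Mb, each at 1.00 floor with 4 or 5 fragments. With 5 peaks in a row in place of 3, a single segment of 3121 kb resulted, from 9868731 to 12989291. The longest segment had the same ends when raised meant 1.5 or 3 floors, but the other 3 depended on the cut. At 1.5 floors they joined into 1 segment of 1043 kb. At 3 floors segments of 463.4, 22.78, 21.2 and 26.02 kb stood in their place.

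The stretch fell into places of different make-up, told apart after the peaks were seen. The first held 5 scattered peaks from 9.87 to 10.24 Mb, with 12.4, 12.4, 8.13, 3.42 and 8.54 floors, a median fold of 4.01 and 12 to 20 fragments. The second held 81 closely spaced peaks in chr3:10330936-10936046, in 2 blocks of 73 and 8 whose members lie no more than 50 kb apart. There the background was low for the stretch, with a median of 2.32 and a highest value of 6.83 floors, and 56 of the 81 were raised. Fragments ran from 6 to 16, with a median of 10, and folds from 3.41 to 9.74, with a median of 5.65. This part of 3p25.3 carried 13.4 peaks per 100 kb.

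The third place held 21 peaks spread over chr3:11698055-12801426, at 1.90 per 100 kb. Their median background was 8.70 floors, 11 of them reached 8 floors, and their fragments ran from 8 to 48. Here lay the highest background of the arm, at chr3:12800768-12801426 in 3p25.2, with 32.9 floors, 48 fragments and a fold of 4.01. Among the second-run peaks off the mitochondrial genome it ranked second in background. The neighbour chr3:12625430-12625921 had 21.3 floors and 27 fragments, and chr3:11887878-11888581 had 13.3 floors with 38 fragments and a fold of 7.04. The fourth was a tight block of 14 peaks in chr3:12951830-12989291, ending at the edge, with a median of 6.15 floors. Its peaks covered 55.0% of 37.5 kb, at 37.4 per 100 kb. It held the widest peak of the whole second run, chr3:12963455-12967223, with 3769 bp, 21 fragments and a fold of 7.33.

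**Figure D3:**
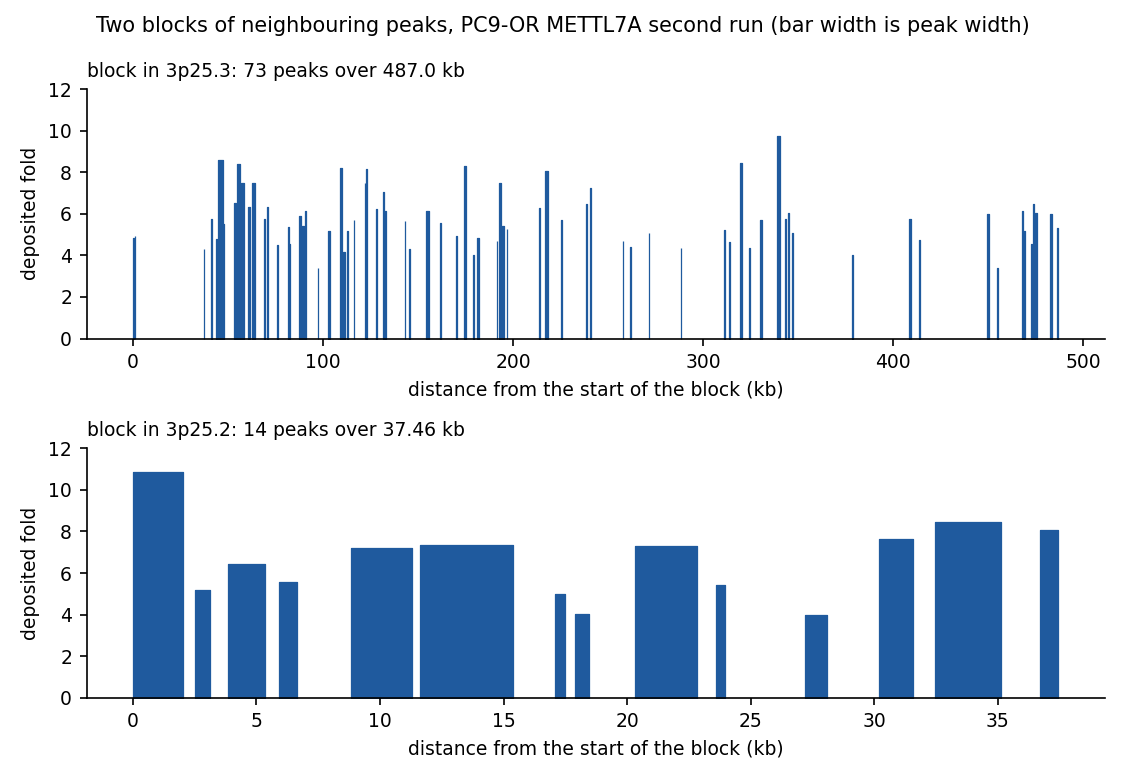
Deposited fold (y axis) of the second-run peaks in the 2 fullest blocks, against the distance in kb from the block's start, with bar width equal to peak width. The 73 peaks of the 3p25.3 block have a median width of 518 bp and fill 10.3% of 487 kb, and the 14 peaks of the 3p25.2 block have a median of 1120 bp and fill 55.0% of 37.5 kb, against a median of 399 bp in the whole run.

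The strongest enrichments did not stand on the highest backgrounds. The highest fold on the arm was that of chr3:12951830-12953853, at 10.9 with 20 fragments, a −log10 q of 14.9 and 2.73 floors. It opens the tight block of 3p25.2. Next came chr3:10669910-10671278 in 3p25.3, with 9.74, 16 fragments and 2.19 floors, and chr3:11950888-11953732 in 3p25.2, with 9.42, 15 fragments and 2.05 floors. The 10 highest folds of the stretch stood on backgrounds from 1.03 to 4.37 floors, and their widths ran from 730 to 2845 bp. In contrast, the 17 stretch peaks on at least 8 floors had a median fold of 4.01, from 3.39 to 7.04, with a median of 19 fragments. The 30 stretch peaks under 2 floors had a median fold of 5.87 with 8 fragments. Fold divides by the background, so these quantities are not independent.

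Stretch peaks were also larger than those on the rest of the arm in fragments and width. Fragments ran from 4 to 48 with a median of 11 in the stretch, and from 4 to 9 with a median of 5 outside. At most 5 fragments were found in 3 of 126 stretch peaks and in 23 of 37 others. The median width was 506 bp against 378 bp, and 25 stretch peaks were wider than 1000 bp against 0 outside, where 4.29% of the whole second run were. The median fold was 5.47 against 4.47. Large peaks were not particular to the stretch. Second-run peaks on chromosome 20 from 57 to 59 Mb had medians of 17 fragments and 589 bp. Of these, 26.4% were wider than 1000 bp, against 19.8% in the stretch, and their median fold was lower, at 4.96. A fold of at least 8 was reached by 12 stretch peaks, by 0 on the rest of the arm and by 74 in the whole run. A peak on a higher background needs more fragments to be called, and what part of the difference in fragments this makes was not tested.

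**Figure D4:**
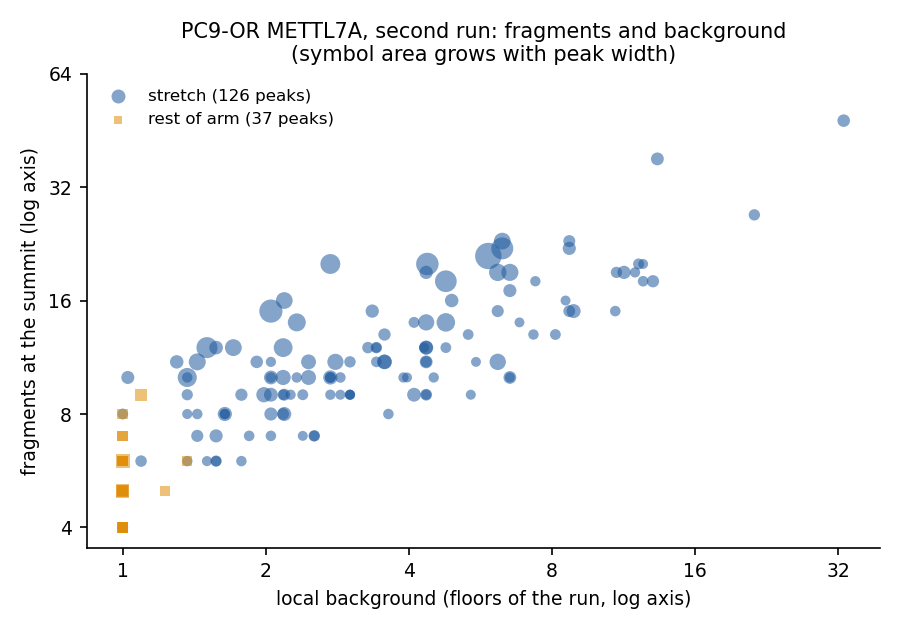
Fragments at the summit (y axis, log scale) against local background in floors (x axis, log scale) for the 163 second-run arm peaks of PC9-OR METTL7A, with symbol area growing with peak width. Peaks on the rest of the arm gather at 1 floor and 4 to 9 fragments, and stretch peaks extend to 32.9 floors and 48 fragments.

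On the rest of the arm the background was low and the peaks were few. Its 37 second-run peaks, 91.9% of them at the floor against 58.6% of the whole run, had backgrounds of 1.00 to 1.37 floors and folds of 3.73 to 7.28. The highest were chr3:49577003-49577631 in 3p21.31, with 7.28 and 9 fragments, and chr3:5028461-5028855 in 3p26.1, with 6.71 and 8 fragments. The band 3p21.31 held 12 peaks, 1.88 per Mb, and was the fullest band by number outside 3p25. At the limits that define the members, the last peak inside was chr3:87276422-87276752 in 3p11.2, with 5 fragments, and the next, chr3:97012570-97013012, lay on the long arm. At 7 Mb the last peak outside was that in 3p26.1 with a fold of 6.71, and the first inside had 4.16.

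Raised background was also found at other places of the second run. Of 99 windows of 1 Mb with at least 10 peaks, 12 had a median of at least 2 floors. They were 3 on chromosome 3, all in the stretch, 3 on chromosome 20, 4 on chromosome 19 and 1 each on chromosomes 11 and 22. The chromosome 3 windows from 10, 11 and 12 Mb had medians of 2.39, 4.35 and 6.52 floors. The stretch held 2.59% of the run's peaks but 11.3% of the raised ones. The segment of chromosome 20 from 57 to 59 Mb had 214 of its 231 peaks raised, of 850 in the run, and a median of 8.34 floors. Chromosome 22 from 17 to 26 Mb had 84 of its 245 peaks raised, or 34.3%, with a median of 1.5 floors. Peaks near the start of chromosome 5 (0 to 2 Mb) were crowded too, with 136, but 32 of them were raised and their median was 1.23 floors. Without single short-window units, 91.3% were raised in the chromosome 20 segment, 26.5% in that of chromosome 22 and 15.4% in that of chromosome 5. The stretch had 73.0% and the whole run 13.4%. On the long arm of chromosome 3 the run had 100 peaks, of which 4 were raised, each by a single short-window unit.

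On the arm the peaks of the 2 PC9-OR METTL7A runs shared no bases, and 2 of the 5 first-run peaks lay within 1 kb of a second-run peak. The overlap of their peaks elsewhere was not counted, so this cannot be called a trait of the arm. None of the 5 first-run arm peaks shared a base with a second-run peak. With every peak widened by 1 kb on each side, 2 of 5 first-run peaks (40%) and 3 of 163 second-run peaks (1.84%) did. One was the pair at 7.21 Mb. The other was chr3:10330142-10330368, with 6.36 floors and 19 fragments, which lay 567 bp before the second-run peak chr3:10330936-10331412, with 4.35 floors and 11 fragments. The first-run peaks at 7.23 Mb lay 20985 and 21632 bp from the nearest second-run peak. The fifth first-run peak, chr3:12447248-12447561 in 3p25.2, had 10.2 floors and 30 fragments and lay 34759 bp from the nearest second-run peak, itself at 8.70 floors. Whether such distances are shorter than the second run's peak density alone would give was not tested. Folds of the 5 first-run peaks were low, from 3.53 to 3.93, against a median of 5.37 in that run.

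The parental wild-type peaks of the arm were thin. In the first run 35 of 38 rested on 2 fragments and 3 on 3, 27 stood at the floor and the highest background was 2.41 floors. The 2 in the stretch, chr3:7642460-7642787 and chr3:8847699-8848027, had 3 and 2 fragments and stood at the floor. The nearest beyond 13 Mb, chr3:13049773-13050016, had 2 fragments and 2.04 floors. The second run's 2 peaks, chr3:33840134-33840444 in 3p22.3 and chr3:49761122-49761503 in 3p21.31, had 5 and 6 fragments, folds of 4.96 and 5.78, and floor background. No parental wild-type arm peak lay on a PC9-OR METTL7A peak, even with 1 kb of widening. Overlap of these lists off the arm was not counted, so whether this is particular to the arm cannot be said. With 0 peaks of these runs inside the raised part, the background of parental cells between 9.87 and 12.99 Mb could not be read from the peaks.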

How the data were processed

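Libraries were MYC-tag immunoprecipitations and inputs of PC9 and PC9-OR cells. MACS2 2.2.7.1, Bowtie2 2.4.2, bedtools 2.30, SAMtools 1.16, deepTools 3.5.1, FastQC, Trimmomatic and the build GRCh37 are named in the submitters' processing notes, and no source used here states their settings. The authors' deposited lists hold a score, a fold enrichment (ratio to local background at the summit), a −log10 p and −log10 q, and the summit offset, as the authors' peak caller wrote them. Peaks had a q of at most 0.05. These values were used within a run only.

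Runs were split where peak numbers restart or names change. Fragments n and background b were solved from fold = (n + 1) / (b + 1) and the Poisson upper tail, within 1 unit of the last deposited digit. All 6236 peaks were solved, and on simulated data 500 of 500 pairs were recovered and 0 of 500 decoys accepted. A floor needed 5 peaks. Bands came from circlize 0.4.16, with Python 3.11.15 and scipy 1.17.1. Named peaks are all arm peaks of runs with at most 10, the 10 highest folds of the stretch and 5 of the rest, the extreme backgrounds, peaks beside edges and limits, and shared peaks. Only the leading ones are printed. The members, limits and comparison regions were chosen with earlier results of these data known, and steps, blocks and the places within the stretch after the peaks were seen. No test was made, since 1 list per group leaves no replicate error and peaks of a run are not replicates. Coordinates are 1-based.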

Additional observations from a re-analysis of the deposited data

Results flagged for a closer look

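On the chromosome 3 short arm the METTL7A list minus the wild-type list gave -40 peaks in PC9 and 168 in PC9-OR, opposite directions in the 2 lines. The difference was not tested. In PC9 it sets 0 peaks of 1 METTL7A run against 38 and 2 of the wild-type runs, and in PC9-OR 5 and 163 against 0 and 0. The run with 38 rests on 2 or 3 fragments a peak. The whole lists differed in the same directions. METTL7A had 56 peaks against 1226 of wild type in PC9, and 4937 against 10 in PC9-OR. The arm held 3.32% of the first parental wild-type run and 3.35% of the second PC9-OR METTL7A run.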

How the results depend on the processing

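No paired analysis was possible because 1 peak list holds both replicates of a group and no value per replicate. Limited to peaks whose −log10 q reached 5, the PC9-OR METTL7A list held 43 arm peaks in place of 168, the parental wild-type list 0 in place of 40, the density ratio of stretch to rest of the whole METTL7A list was 288.7 in place of 49.86, and the median second-run folds were 7.222 in the stretch and 6.998 outside. Only 2 peaks outside the stretch reached that q, so this ratio and the outer median rest on 2 peaks. With peaks within 10 kb merged the METTL7A arm count was 76 and the density ratio 15.65. Without its second run that list held 5 arm peaks, all in the stretch, so no ratio exists. The parental wild-type list held 2 arm peaks with at least 5 fragments and 2 without its first run. With 5 peaks in a row the longest raised segment was 3121 kb in place of 1291 kb, by construction of the exit rule. With peaks widened by 1 kb, 2 in place of 0 first-run arm peaks lay on second-run peaks. The cause of the other changes was not tested. The other alternatives gave 20 values close to the reported ones. The density ratio lay between 38.82 and 63.88 with 1 kb merging, other stretch limits, a centromere margin or without the first run, and the longest raised segment was 1291 kb at 1.5 and 3 floors. The median stretch background lay between 2.734 and 3.28 floors, which includes leaving out short-window values or single short-window units, alternatives chosen after seeing the data. List length limits what the thin lists can show.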
